A study of Arabidopsis thaliana and Zea mays with 822 samples.

Results

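Deletions larger than 20 bp were collected from the amplicon libraries of Arabidopsis DNA edited with CasΦ-2, a compact CRISPR nuclease, and from the unedited controls. A deletion entered the set when its label held a single deletion of more than 20 bp and it had at least 10 reads in a library. The set held 1127 distinct deletions, counted by guide RNA and label, out of 6821 distinct insertion and deletion patterns with at least 10 reads. Counted by library it held 17022 of 80686 entries. At least 1 such deletion was present in 625 of 692 edited libraries and in 7 of 50 control libraries. The edited libraries carried 16075844 reads of these deletions, and the controls carried 747.

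The libraries came from leaves of T1 plants, the first transgenic generation, and from mesophyll protoplasts, which are leaf cells without walls. All 476 T1 plant libraries targeted AtPDS3 gRNA10, and 5 of them were repeat samples of leaves and a flower of 1 plant. The T1 plants were Col-0 or rdr6-15, a mutant impaired in transgene silencing. They carried wild-type CasΦ-2 (WTCasΦ) or the engineered variants vCasΦ or nCasΦ, driven by the UBQ10 promoter, in constructs with nuclear localization signals at both ends (version 1) or at the C terminus alone (version 2). Guide RNAs were driven by U6 or, in rdr6-15 plants with vCasΦ or nCasΦ, by the CmYLCVp or pUB10 promoters with ribozymes on both sides of the guide. Col-0 and rdr6-15 plants with WTCasΦ were grown at 23 °C or were first kept at 28 °C. The 216 edited protoplast libraries received a plasmid or a preassembled ribonucleoprotein (RNP). Among the gRNA10 protoplasts, plasmids carried the guide behind U6, 2x35Sp, CmYLCVp or pUB10, as a single guide (A form), a guide with a second repeat (B form) or an array of several guides (C form), some with ribozymes and some with a longer spacer labelled 30bp. Some U6 plasmid libraries were kept at 23 °C or 28 °C, and 1 RNP library had a pulse at 37 °C. They came from Col-0 cells for the AtPDS3 guides, and from fwa-4 or wild-type cells for the FWA guides. A first screen of 10 FWA guides with 1 library each is labelled wild type, whereas the study describes that screen in fwa-4 cells, so its genotype is uncertain. The controls were 8 untransformed wild-type plants and 42 protoplast libraries that received no nuclease, a GFP plasmid or an RNP with a scrambled guide. Library totals lay between 197725 and 9404589 reads with a median of 2014840.

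CasΦ-2 recognises a T-rich motif, the protospacer adjacent motif (PAM), and cuts the strands at staggered positions distal to it. Plant cells rejoin such ends mostly by end joining, which trims bases. When short stretches of the same bases lie on both sides of a break, the ends can pair there, and the deletion then removes one copy together with the bases in between. Amplification by PCR can also skip between repeated stretches, so that molecules without any cut can give the same product. AtPDS3 encodes phytoene desaturase, an enzyme of carotenoid synthesis whose loss gives albino tissue. FWA encodes a homeodomain protein and is silenced in wild-type leaves by DNA methylation of its promoter, which the fwa-4 epiallele has lost.

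The sequences below show the sites where the most frequent deletions lay, because the bases shared by the ends of each deletion can be read from them. They were taken from RefSeq TAIR10.1. In each guide's site line, capitals mark the 20 bases of the target site, and in the other lines capitals mark the deleted bases. Position 0 lies between bases 18 and 19 of the target site, negative positions lie toward the PAM, and there is no base numbered 0. A label such as -16:24D gives the first deleted position and the number of deleted bases. The AtPDS3 gRNA10 lines cover chr4:8194243-8194313, plus strand. AtPDS3 lies on the minus strand, and the coding exon here spans chr4:8194197-8194285, so that bases to the right of 8194285 are intron at the splice acceptor.
gRNA10 site: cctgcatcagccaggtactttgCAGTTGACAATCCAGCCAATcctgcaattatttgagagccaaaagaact
gRNA10 -16:24D: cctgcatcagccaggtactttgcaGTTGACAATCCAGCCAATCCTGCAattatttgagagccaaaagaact
gRNA10 -34:42D: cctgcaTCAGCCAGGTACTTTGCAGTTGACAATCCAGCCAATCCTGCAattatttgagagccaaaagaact
gRNA10 -18:34D: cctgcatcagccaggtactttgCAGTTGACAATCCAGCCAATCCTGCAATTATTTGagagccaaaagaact
gRNA10 -6:31D: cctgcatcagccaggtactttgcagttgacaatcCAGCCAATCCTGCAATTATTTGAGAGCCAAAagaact

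The FWA lines below show the overlapping sites of gRNA5 and gRNA6 on the minus strand of chr4:13038177-13038237, upstream of the annotated start of FWA at chr4:13038360. They are given because a deletion with the same genomic ends has a different label under each guide. The site lines have the target bases in capitals and the other lines the deleted bases.
FWA gRNA5 site: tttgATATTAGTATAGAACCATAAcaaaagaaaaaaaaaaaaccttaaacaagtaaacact
FWA gRNA6 site: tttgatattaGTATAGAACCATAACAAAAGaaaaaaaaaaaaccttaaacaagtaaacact
FWA gRNA5 -2:24D: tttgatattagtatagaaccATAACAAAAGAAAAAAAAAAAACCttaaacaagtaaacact
FWA gRNA5 -9:42D: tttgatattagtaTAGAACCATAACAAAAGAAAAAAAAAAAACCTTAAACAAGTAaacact

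Most deletions larger than 20 bp were seen with AtPDS3 gRNA10, the guide with most libraries. It gave 571 distinct deletions in 518 of 552 edited libraries, with 15442456 reads. AtPDS3 gRNA8 gave 61 in 15 of 18 libraries. Among the FWA guides, gRNA5 gave 204 in 24 of 29 libraries, gRNA6 147 in 21 of 29, gRNA4 85 in 24 of 29 and gRNA1 58 in 22 of 29. FWA gRNA2 gave 1 in its single library, and the single libraries of FWA gRNA3, gRNA7, gRNA8, gRNA9 and gRNA10 gave none. These numbers were not adjusted for how many libraries each guide had. Deletions seen in 1 library alone made up 91 of 571 at gRNA10, 50 of 61 at gRNA8 and 93 of 204 at FWA gRNA5.

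**Figure D1:**
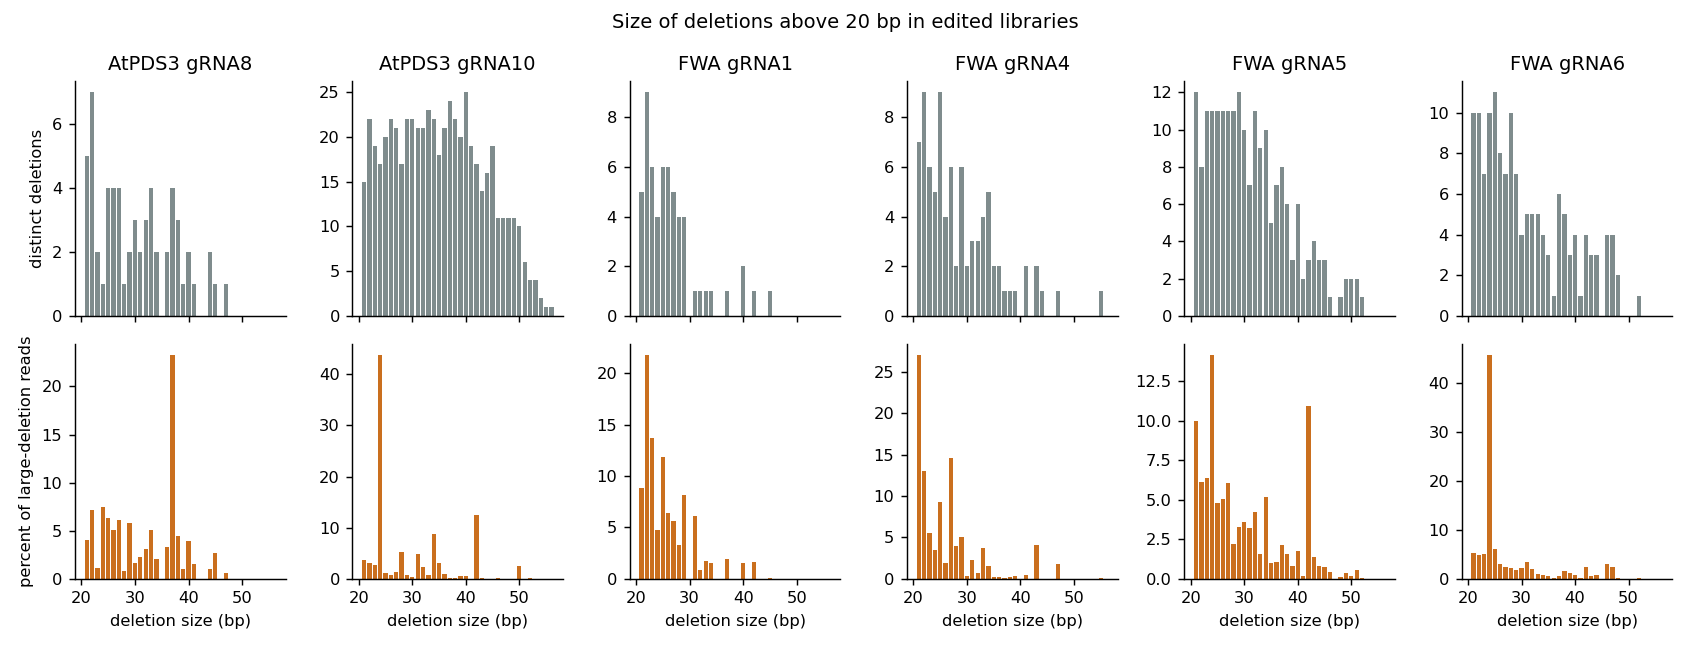
Sizes of the deletions above 20 bp in edited libraries for 6 guides. The x axis gives the deletion size in bp, the upper bars count distinct deletions, and the lower bars give the percent of the guide's large-deletion reads at each size. At AtPDS3 gRNA10 distinct deletions are spread over sizes up to 56 bp, whereas the reads stand at a few sizes, of which 24 bp is the tallest.

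The distinct deletions were mostly short. Their median size was 35 bp at gRNA10, 30 bp at gRNA8 and FWA gRNA5, 29 bp at gRNA6, 27 bp at gRNA4 and 25 bp at gRNA1. The largest was 56 bp, -31:56D at gRNA10, with 95 reads in 1 plant. No label of any kind at any read count held a deletion above 56 bp, and no labelled insertion or deletion started after +16 or ended before -24, so the files record no longer or more distant deletions. How reads and distinct deletions were spread over sizes differed between guides. At gRNA10, sizes of 21 to 30 bp held 34.5% of distinct deletions and 62.6% of reads, sizes of 31 to 50 bp held 62.3% and 37.2%, and sizes above 50 bp held 3.15% and 0.181%. At FWA gRNA1 and gRNA4, 84.6% and 84.3% of reads were at 21 to 30 bp. At FWA gRNA1 this was close to the 84.5% of distinct deletions. At gRNA8 the order was opposite to gRNA10, as sizes of 31 to 50 bp held 45.9% of distinct deletions and 54.4% of reads. There -5:37D had 3009 reads in 3 libraries, of which 2815 came from 1 library and 66 and 128 from the others. Just below the size limit, 20 bp deletions numbered 64 with 790501 reads, and just above it 21 bp deletions numbered 54 with 615658 reads.

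Nearly all of these deletions removed the bases on both sides of position 0. Of the 1127, 1067 did so as labelled, and 1071 when every equivalent placement within repeated bases was allowed. Among edited libraries the spanning share of distinct deletions was lowest at gRNA10, with 93.3%, and lay between 95.3% and 96.7% at gRNA8 and at FWA gRNA1, gRNA4, gRNA5 and gRNA6. By reads it lay between 98.5% at gRNA10 and 99.6% at FWA gRNA1 and gRNA6. The bases lost were not balanced around position 0. At gRNA10 the median spanning deletion removed 21 bases on the PAM side and 15 on the far side, and 325 deletions lost more on the PAM side against 197 on the far side. At gRNA8 the order was opposite, with medians of 10 and 17. FWA gRNA5 and gRNA6 also lost more on the far side, with medians of 12 and 16.5 and of 12 and 16. FWA gRNA1 lost more on the PAM side, with 16.5 and 9, and gRNA4 was near balance, with 13 and 14. Where bases are repeated at a junction, a deletion can be written at several equivalent positions. The labels used the placement farthest from the PAM at both AtPDS3 guides, at FWA gRNA6 and, with 1 exception, at FWA gRNA5, and the placement nearest the PAM at FWA gRNA1, gRNA2 and gRNA4, which shifts these medians by the length of the repeat.

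**Figure D2:**
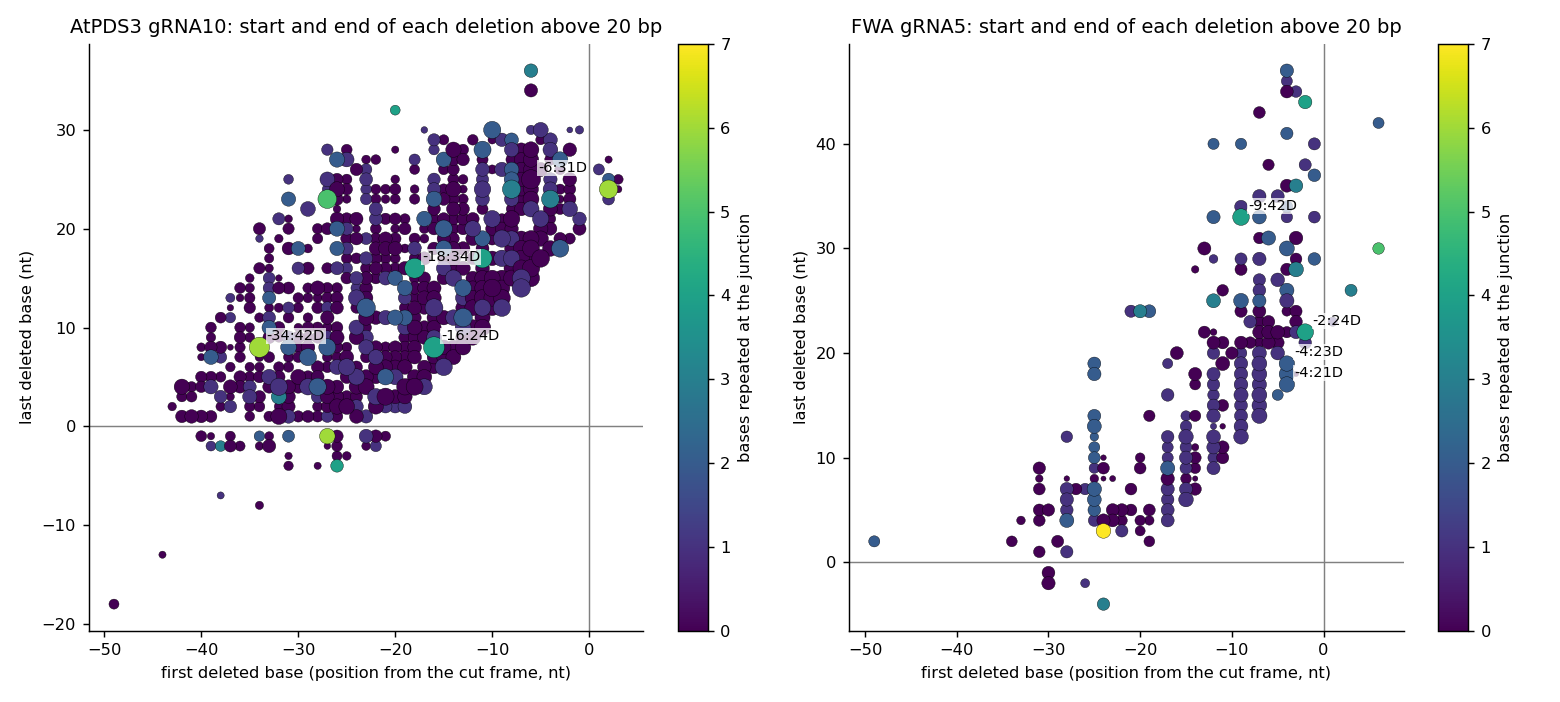
Start and end of each deletion above 20 bp at AtPDS3 gRNA10 (left) and FWA gRNA5 (right) in edited libraries. The x axis gives the first and the y axis the last deleted position in nt from position 0. Points grow with the logarithm of the reads, colour gives the number of bases repeated at the junction, and the 4 deletions with most reads are named in each panel. Points left of the vertical line and above the horizontal line span position 0, as do 533 of 571 at gRNA10.

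The AtPDS3 deletions mostly reached out of the exon. At gRNA10, 492 of 571 distinct deletions, with 98.8% of reads, crossed the boundary between the coding exon and the intron on its 5′ side, and 79 stayed within the exon. The target site ends at chr4:8194284 and the exon at chr4:8194285. A deletion that spans position 0 therefore crosses unless it removes few bases on the far side. Crossing was not computed for shorter or for all possible deletions, so it is not shown to be particular to large ones. At gRNA8, whose exon spans chr4:8192651-8192799, 50 of 61 crossed the boundary, with 85.2% of reads. Of the 571 gRNA10 deletions, 194 had a size that is a multiple of 3, without a share among all possible deletions to set beside it. At FWA gRNA1, 46 of 58 deletions crossed the annotated transcription start. All deletions at FWA gRNA4, gRNA5 and gRNA6 lay upstream of it.

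A few deletions carried most of the reads. At gRNA10 the 10 deletions with most reads held 77.2% of all large-deletion reads. The deletion -16:24D, at chr4:8194267-8194290, had 6178102 reads in 481 edited libraries, 435 of them plants and 46 protoplasts. The 4 bases tgca lie just before it and are also its last bases, so that 1 copy is lost. In vCasΦ and nCasΦ plants it had between 0.00284% and 36.3% of reads with a median of 0.306% (n = 269). In Col-0 WTCasΦ plants at 23 °C it lay between 0% and 2.41% with a median of 0.0106% (n = 84). In the edited gRNA10 protoplasts it lay between 0% and 0.744% with a median of 0.00838% (n = 76). The ranges of these sets overlapped widely.

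The next most frequent deletion, -34:42D at chr4:8194249-8194290, ended at the same base, +8, and had 1893855 reads in 424 edited libraries. Its ends share the 6 bases cctgca, which hold the tgca of -16:24D, so that both deletions join the same right-hand copy to a different left-hand copy. It reached 22.7% of reads in 1 plant and its median in vCasΦ and nCasΦ plants was 0.0635%. The deletion -18:34D, at chr4:8194265-8194298 with tttg at both ends, had 1321156 reads in 235 libraries. Of these, 1094913 came from 1 vCasΦ plant with a U6 guide, and its median over all 476 plant libraries was 0. The deletion -6:31D has no base repeated at its ends and was picked after its values were seen. It had 614420 reads in 140 libraries, of which 586566 came from 1 vCasΦ plant with the CmYLCVp guide.

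Recurrence between libraries was read from gRNA10 alone, as other guides had at most 29 libraries. Of its 571 deletions, 91 were in 1 library, 226 in 2 to 9, 214 in 10 to 99 and 40 in 100 or more. The 40 most recurrent had a median size of 24.5 bp and 17 of them had at least 2 repeated bases at the junction. The 91 seen in 1 library had a median size of 42 bp and 1 of them had at least 2 repeated bases. Plants held 570 of the deletions and protoplasts 169, and 168 were in both, which was 29.5% of the plant deletions and 99.4% of the protoplast deletions. There were 476 plant libraries against 76 protoplast libraries, and the overlap was not adjusted for this. It was not computed for shorter deletions or for all patterns, so it is not shown to be particular to large deletions.

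Repeated bases at the junction were then set against all deletions of the same sizes that could span position 0 in the same sequence. At every guide with more than 1 library of deletions, the read-weighted share of deletions with at least 2 repeated bases was above the share among all possible deletions. At gRNA10 it was 77.9% by reads and 8.07% by distinct deletions, against 6.78% of all possible ones. The corresponding values were 43.0%, 32.2% and 6.08% at gRNA8, and 65.3%, 21.1% and 8.05% at FWA gRNA6. They were 51.4%, 20.4% and 6.69% at FWA gRNA5, 35.2%, 16.1% and 6.89% at gRNA1, and 34.0%, 9.88% and 6.39% at gRNA4. At gRNA10 the distinct deletions were close to all possible ones, and the reads stood apart because a few repeat-flanked deletions held most of them. Shorter deletions of 3 to 20 bp that span position 0 had such repeats in 37.4% of reads at gRNA10, 45.6% at gRNA8, 0.806% at FWA gRNA1, 29.0% at gRNA4, 64.8% at gRNA5 and 75.1% at gRNA6. Which size class had the higher share depended on the measure. By reads with at least 2 repeated bases it was the larger deletions at gRNA10, FWA gRNA1 and gRNA4, and the shorter ones at gRNA8, gRNA5 and gRNA6. With at least 3 repeated bases the order by reads turned at FWA gRNA5, with 27.1% in the larger and 13.0% in the shorter deletions, and at gRNA6, with 56.2% and 2.02%, and both were 0% at gRNA1. By distinct deletions with at least 2 it was the larger ones also at gRNA8, with 32.2% against 15.1%, and gRNA5, with 20.4% against 16.0%. These shares are descriptions without a test.

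**Figure D3:**
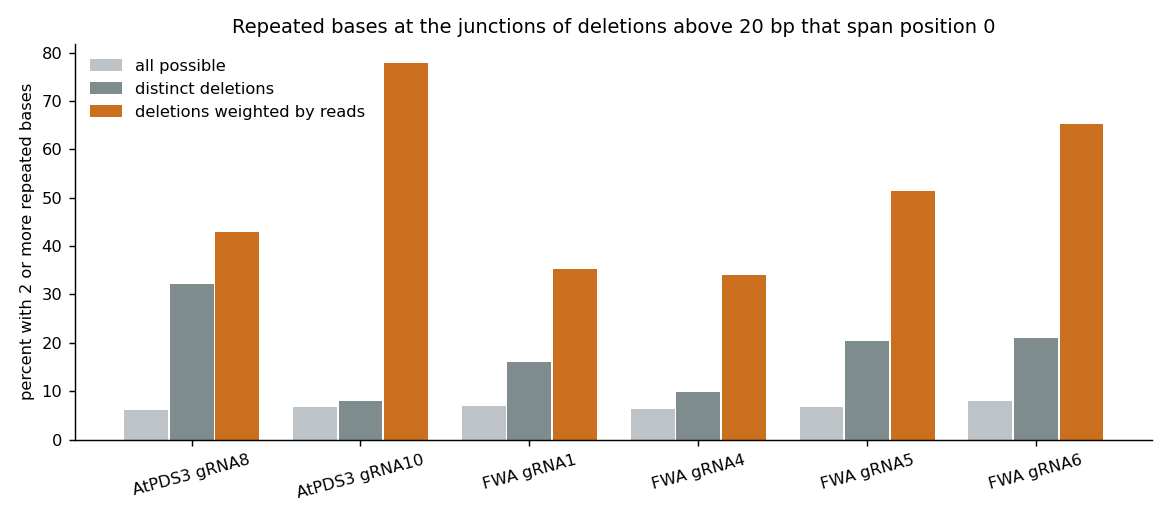
Percent of deletions above 20 bp spanning position 0 that have 2 or more bases repeated at the junction, for 6 guides. Bars start at 0 and stand for all possible deletions of the same sizes, for distinct deletions seen and for deletions weighted by reads. The read-weighted bar is the tallest at each guide, from 34.0% at FWA gRNA4 to 77.9% at AtPDS3 gRNA10.

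The neighbouring guides FWA gRNA5 and gRNA6, whose sites are 6 bases apart, gave many of the same genomic deletions. They shared 83, which was 40.7% of those at gRNA5 and 56.5% of those at gRNA6, and these held 69.6% and 80.7% of the large-deletion reads. Sharing among shorter deletions or all patterns of these guides was not computed, so it is not shown to be particular to large deletions. The leading deletion of both was chr4:13038194-13038217, with aacc at both ends, labelled -2:24D at gRNA5 and -8:24D at gRNA6. It had 33510 reads in 14 gRNA5 libraries and 50365 reads in 17 gRNA6 libraries, reaching 0.216% and 0.472% of a library. Second at gRNA5 was -9:42D, chr4:13038183-13038224 with agta at both ends, with 31940 reads in 17 libraries. Second at gRNA6 was -4:24D, with taa at both ends and 26644 reads in 15 libraries. Of the gRNA4 deletions, whose site lies on the other strand, 10 were shared with gRNA5 alone and 4 with both.

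At the other guides the leading deletions were less frequent. FWA gRNA4 was led by -16:21D, with 7158 reads in 12 libraries, and by -22:27D, with 5931 reads in 9 libraries and the 7 bases gttatgg at both ends. Its most widespread deletion was -11:33D, in 14 libraries with 1393 reads. FWA gRNA1 was led by -9:22D, with 4419 reads in 5 libraries, followed by -22:31D with 4166 in 3 and -16:22D with 3968 in 2. After -5:37D, gRNA8 had -7:37D with 1645 reads and -4:24D with 1517, each in 5 libraries. None of these was found at 10 reads in a control. Apart from gRNA10, each deletion was therefore carried by at most 17 libraries, and single libraries weigh heavily in the read shares.

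Controls were examined for the same patterns, since a PCR product needs no cut. Of the 1127 deletions seen in edited libraries, 5 had at least 10 reads in a control of the same guide, or 0.444%. Among all insertion and deletion patterns of at least 3 bp the share was 1.60%, and among single deletions of 3 to 20 bp it was 7.51%. The 5 were -16:24D, -34:42D and -23:35D at gRNA10, -66:45D at FWA gRNA1 and -62:45D at FWA gRNA2. The 3 from gRNA10 were ranked 1, 2 and 7 by edited reads at that guide, whereas -66:45D and -62:45D were rare in edited DNA, with 29 and 33 reads.

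In the 3 untransformed plants sequenced with the vCasΦ and nCasΦ plants, -16:24D had 175, 130 and 158 reads, or 0.00580%, 0.00568% and 0.00587% of reads. Of the 4 untransformed plants sequenced with the Col-0 plants, 2 had 67 and 42 reads, or 0.00367% and 0.00297%, and the other 2 had fewer than 10. The deletion -34:42D had 38, 23 and 38 reads in the first 3 and 11 in 1 of the other 4. The 3 plants of the first experiment were close to one another, whereas the 4 of the second ranged from 0% to 0.00367% for -16:24D. None of the 8 gRNA10 protoplast controls had 10 reads of -16:24D, although 7 had at least 1. Of the vCasΦ and nCasΦ plants, 256 of 269 were above the highest of their 3 controls for -16:24D, and of the Col-0 plants 66 of 84 were above the highest of their 4. Whether control reads came from PCR, from DNA carried over between libraries or from reads given to the wrong index was not tested.

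A pair of these control patterns at FWA lay in a tandem repeat. The site of FWA gRNA2 starts at the junction of a pair of adjacent 45-base copies, at chr4:13038249-13038293 and chr4:13038294-13038338 on the plus strand, and -62:45D removes the first. The copies are shown because they have the same base at 43 of 45 positions, and capitals mark the 38 that are identical in a row.
first copy: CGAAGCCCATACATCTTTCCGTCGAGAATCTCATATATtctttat
second copy: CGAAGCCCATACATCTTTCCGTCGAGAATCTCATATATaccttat

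The deletion -62:45D had 33 reads in the edited gRNA2 library and 42 in its control, or 0.000896% and 0.00117% of reads. Its label does not span position 0, although an equivalent placement does. At gRNA1 the deletion -66:45D, chr4:13038290-13038334, had at least 1 read in 8 of 8 controls and in 29 of 29 edited libraries. Its median was 0.000141% of reads in controls, with 2 to 12 reads, and 0.000120% in edited libraries, with 1 to 16 reads. The groups overlapped, with a highest value of 0.000579% in controls and 0.000779% in edited libraries.

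Summed over all deletions above 20 bp, edited libraries exceeded their controls in each setting. In plasmid protoplasts with 6 guides the edited libraries had between 0% and 1.03% of reads with a median of 0.0718% (n = 36), and all 6 controls had 0%. The mean was 0.209% ± 0.281 (SD), with an exact two-sided permutation test of the rank sum within guides giving p = 0.000391 (adjusted p = 0.000521 over 4 tests). In RNP protoplasts the edited libraries had between 0% and 1.49% with a median of 0.0980% (n = 72), and the 18 controls with a scrambled guide had 0% (exact permutation p = 4.15e-13, adjusted p = 1.66e-12). Edited means were higher than the control at 6 of 6 guides in both settings. The control values of 0% rest on the minimum of 10 reads per deletion and library. Below it, controls of these regions did hold some deletions above 20 bp. Over all controls of a guide, the most reads of a single deletion were 3 at FWA gRNA4 and gRNA6, 2 at gRNA5 and 1 at gRNA8. At FWA gRNA1 the most were 12, in a control of another experiment. At gRNA10, 7 of the 8 protoplast controls of all experiments held -16:24D, each with fewer than 10 reads. The plasmid call held under 8 of 8 other settings and the RNP call under 10 of 10, among them no read minimum.

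In Col-0 plants grown at 23 °C the deletions had a median of 0.0252% of reads, between 0% and 3.56% (n = 84). The 4 untransformed plants had a median of 0.00148%, between 0% and 0.00427% (exact two-sided permutation p = 0.00347, adjusted p = 0.00347). Although the medians differed, the groups overlapped, with 69 of 84 edited plants above the highest control. In vCasΦ and nCasΦ plants the median was 0.891%, between 0.00394% and 49.3% (n = 269), against 0.00668%, 0.00728% and 0.00742% in the 3 untransformed plants (exact permutation p = 0.000165, adjusted p = 0.000330). Here 263 of 269 were above the highest control. The untransformed plants were wild type whereas the vCasΦ and nCasΦ plants were rdr6-15, so genotype and editing cannot be told apart in that comparison. Expressed as a share of the few indel reads of those 3 controls, which were 0.0930% to 0.128% of their reads, the deletions made up 5.81%, 5.98% and 7.18%, which lies inside the range of the edited plants.

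**Figure D4:**
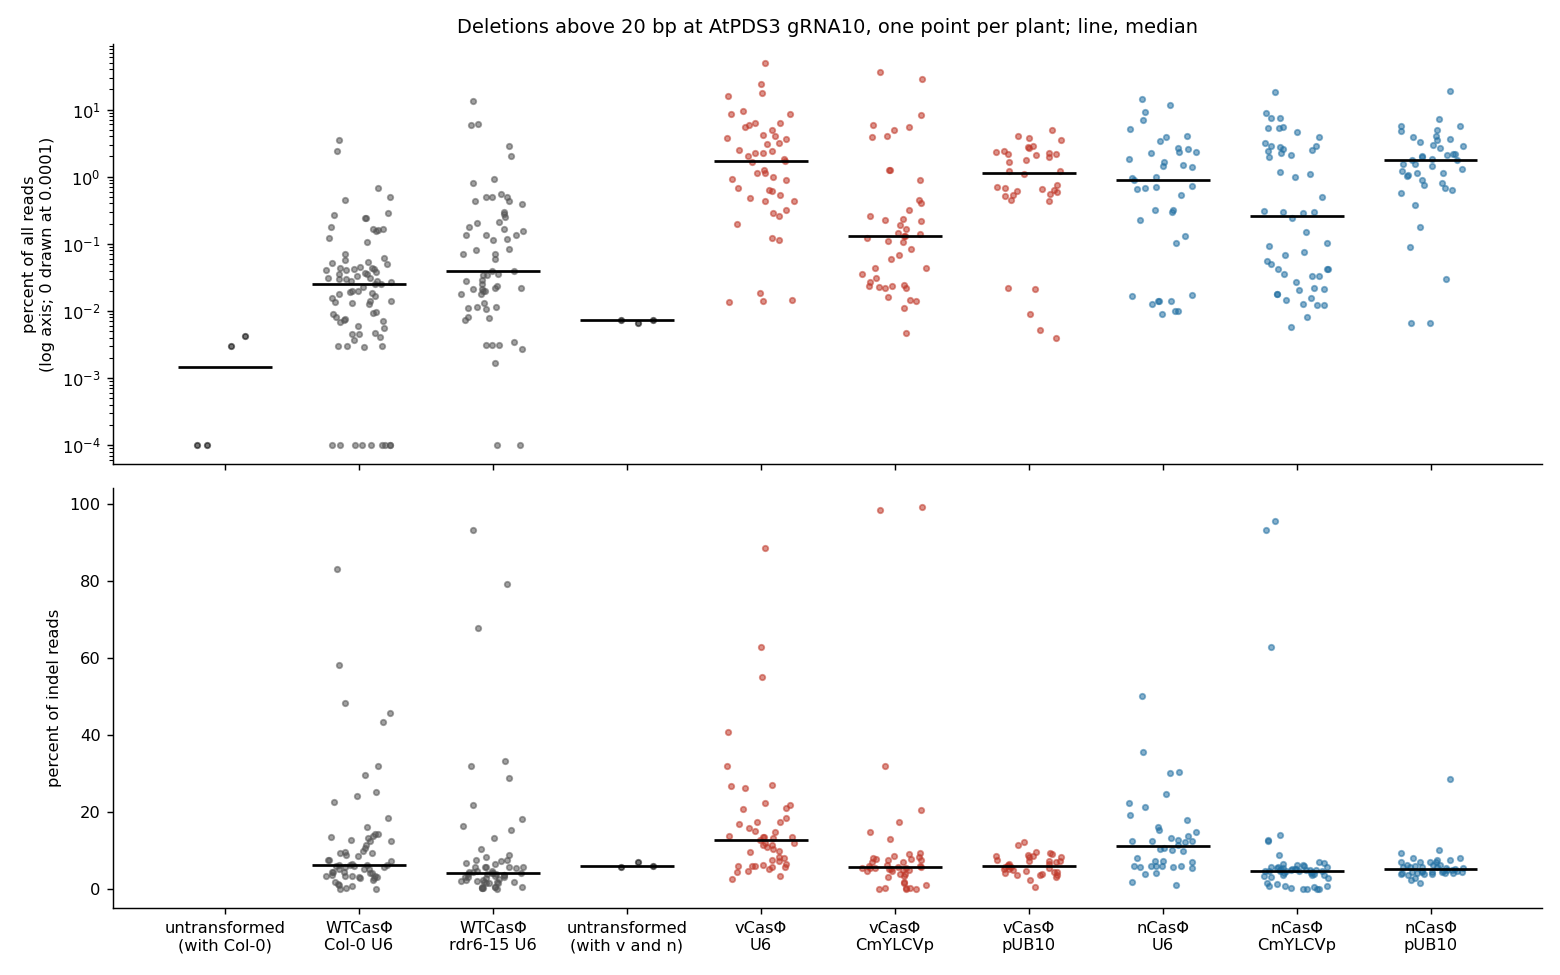
Deletions above 20 bp at AtPDS3 gRNA10 in T1 plants and untransformed plants, with 1 point per plant and the median as a line. The upper panel gives percent of all reads on a log axis with 0 drawn at the bottom, and the lower panel percent of indel reads on a linear axis. In the upper panel the vCasΦ and nCasΦ plants have a median of 0.891% against 0.00728% in their 3 untransformed plants, and in the lower panel the 3 untransformed plants lie among the edited ones.

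Enzymes, guides and delivery were compared by the share of indel reads, which sets the large deletions against the edited reads of the same library. Indel reads were those of patterns that insert or delete 3 bp or more, at 10 reads or more. The share is the percent of them with a deletion above 20 bp and was taken in the 634 edited libraries with at least 1000 indel reads. In rdr6-15 plants with a U6 guide, vCasΦ plants had a median share of 12.9%, between 2.77% and 88.7% (n = 49). The nCasΦ plants had 11.2%, between 1.12% and 50.1% (n = 40), and the WTCasΦ plants 4.31%, between 0.618% and 33.2% (n = 22). The shares overlapped, but both variants were higher than WTCasΦ, by 8.57 percentage points for vCasΦ (exact two-sided permutation p = 2.81e-05, adjusted p = 0.000253 over 9 tests) and by 6.85 for nCasΦ (p = 0.000599, adjusted p = 0.00269). Both calls held but the sizes fell to 1.76 and 1.84 points above 30 bp and to 2.60 and 3.37 points without the 3 deletions found in controls. The difference between nCasΦ and vCasΦ was -1.72 points and was within the spread between plants (exact permutation p = 0.310, adjusted p = 0.698). The WTCasΦ plants were labelled 23 °C, while labels gave no temperature for the vCasΦ and nCasΦ plants. The higher shares were seen with U6 guides. With ribozyme guides in rdr6-15 plants, median shares were 5.73% and 6.15% for vCasΦ and 4.88% and 5.39% for nCasΦ. Col-0 WTCasΦ plants with U6 had 7.70% in version 1 and 6.35% in version 2. The ribozyme plants were not tested against WTCasΦ plants.

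Plants with vCasΦ or nCasΦ and U6 also held more distinct deletions, with medians of 29 and 20 against 6 with WTCasΦ. Their median percent of reads with indels was also higher, at 15.5% and 14.5% against 0.940%, and its part in these counts was not tested. Their large-deletion reads differed little in size, as the mean deletion of a plant had a median of 28.6 bp with vCasΦ, 28.9 bp with nCasΦ and 27.6 bp with WTCasΦ. In plants with ribozyme guides the median number of distinct deletions was higher with pUB10, without a test. It was 101 with pUB10 and 15.5 with CmYLCVp for nCasΦ, and 72.5 and 11.5 for vCasΦ. The median percent of reads with indels moved with it, at 36.4% and 9.14% for nCasΦ and 18.2% and 4.41% for vCasΦ, and its part was not tested. The shares were not told apart. With vCasΦ they were 5.73% under CmYLCVp (n = 46) and 6.15% under pUB10 (n = 36), a difference of -0.413 points (exact permutation p = 0.659, adjusted p = 0.769 over 7 tests). With nCasΦ they were 4.88% (n = 54) and 5.39% (n = 43), a difference of -0.516 points (exact permutation p = 0.146, adjusted p = 0.255). The last difference passed the threshold when the most frequent deletion was left out, at -0.536 points with an adjusted p of 0.0311.

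In protoplasts none of the enzyme differences in this share passed the test. With RNPs, WTCasΦ had a mean share of 4.87% ± 3.96 (SD, n = 24), vCasΦ 4.84% ± 3.83 and nCasΦ 4.90% ± 3.50, and none of the 3 differences passed the test (exact permutation within guides, adjusted p = 0.926 for each). With a minimum of 0.5% of indel reads per pattern, chosen after seeing the data, nCasΦ minus WTCasΦ turned from 0.0298 to -1.48 points and passed (adjusted p = 0.00683). With plasmids WTCasΦ had 4.68% ± 6.42 (SD, n = 12), vCasΦ 7.42% ± 5.99 and nCasΦ 4.62% ± 3.70. The largest plasmid difference, nCasΦ minus vCasΦ, was -2.81 points (exact permutation p = 0.156, adjusted p = 0.467). A missed threshold does not show that the enzymes act alike. Plasmid and RNP libraries, which were separate experiments, had mean shares of 5.57% and 4.87% (exact permutation p = 0.935, adjusted p = 0.935), and delivery and experiment cannot be told apart.

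In RNP protoplasts the share differed between guides. FWA gRNA6 had the highest share, 10.7% ± 3.67 (SD, n = 12), with values between 4.89% and 16.0%. FWA gRNA5 followed with 6.41% ± 1.87, and gRNA8 with 4.46% ± 3.34, between 0% and 9.42%. Then came gRNA10 with 3.23% ± 0.793, FWA gRNA1 with 2.58% ± 0.726 and FWA gRNA4 with 1.81% ± 0.774. With vCasΦ and nCasΦ at FWA gRNA6, replicates 1 and 2 gave 6.81% to 8.87%, and replicates 3 and 4 gave 13.3% to 14.8%. With WTCasΦ they gave 4.89% and 10.8% against 10.8% and 16.0%. At FWA gRNA5 replicates 3 and 4 were also higher with each enzyme, and the other guides did not split so throughout. At gRNA8 with vCasΦ the order was opposite, with 8.98% and 5.70% against 0% and 0%. What set these replicates apart was not tested. For FWA gRNA5 and gRNA6 alone, patterns wholly within the run of A bases near their sites were left out of the indel reads. How far this raised their shares was not tested. Of the 15 pairs, 10 differed by the exact permutation test within enzymes after adjustment over the 15. FWA gRNA6 exceeded every other guide, with adjusted p from 2.92e-05 to 0.0117. FWA gRNA5 exceeded gRNA10, gRNA1 and gRNA4 with adjusted p of 0.00274, 0.000227 and 8.75e-05. The pairs of gRNA8 with gRNA10, gRNA1, gRNA4 and gRNA5, and the pair of gRNA10 with gRNA1, were not told apart. These tests did not use same-numbered replicates as blocks. With such blocks the exact permutation test gave adjusted p from 0.00183 to 0.0106 for the pairs of FWA gRNA6. The pair of gRNA10 with gRNA1 then passed, with an adjusted p of 0.0300 by the exact permutation test in place of 0.0734. Above 30 bp, 6 pairs differed. AtPDS3 guides were used in Col-0 cells and FWA guides in fwa-4 cells, so that gene and genotype cannot be told apart between the loci.

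**Figure D5:**
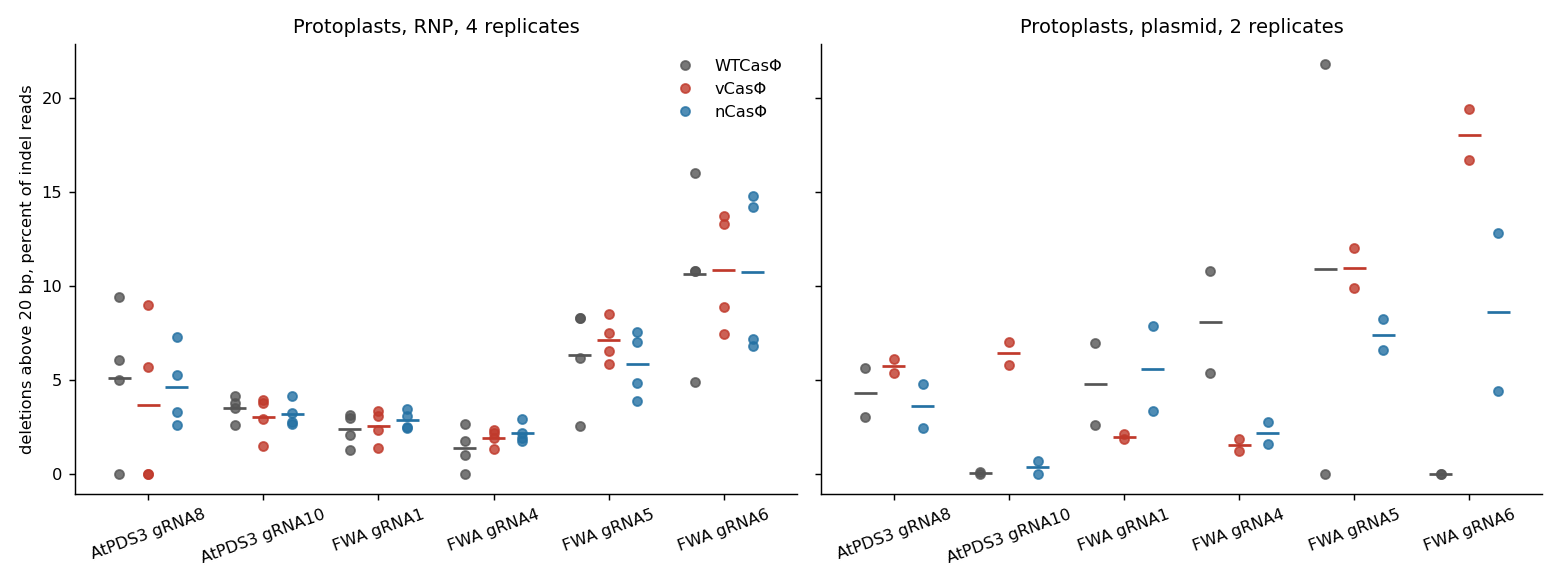
Deletions above 20 bp as percent of indel reads in protoplasts with 6 guides and 3 enzymes, delivered as RNP (left, 4 replicates) or plasmid (right, 2 replicates). Points are libraries and short lines are means. FWA gRNA6 is highest in the RNP panel, with a mean of 10.7%, and the enzymes overlap at each guide there.

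The plasmid libraries spread more widely. With gRNA10, vCasΦ gave shares of 5.80% and 7.01% and nCasΦ 0% and 0.665%, although the nCasΦ libraries had 4.29% and 4.86% of reads with indels. WTCasΦ gave 0% and 0.0679% there. With FWA gRNA5 and WTCasΦ the replicates were 21.8% and 0%. FWA gRNA6 with WTCasΦ gave 0% in both replicates, whereas the RNP libraries of that guide and enzyme gave 4.89% to 16.0%. The plasmid WTCasΦ libraries with FWA gRNA5 and gRNA6 had only 3970 to 6351 indel reads, and the 21.8% came from 4 deletions with 1386 reads.

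The share was higher in plants than in protoplasts for the closest match available, Col-0 with WTCasΦ and a U6 guide for gRNA10. Version 2 plants at 23 °C had a median of 6.35%, between 0.0961% and 83.2% (n = 34), and plasmid protoplasts a median of 0.0679%, between 0% and 3.00% (n = 5). The protoplast libraries were pooled from several experiments, all other than that of the plants. Plant or protoplast and experiment therefore cannot be told apart. The exact two-sided permutation test gave p = 0.000278 (adjusted p = 0.00195 over 7 tests). Several settings ended this call. With a minimum of 100 reads per pattern the difference was 4.40 points (adjusted p = 0.123). Without the 3 control deletions it was 1.70 points (adjusted p = 0.286), and without -16:24D it was 2.71 points (adjusted p = 0.0823). Col-0 protoplasts that received WTCasΦ with gRNA10 in other ways reached higher shares in some groups. Medians were 3.62% with RNPs (n = 4), 5.29% with the single CmYLCVp guide, 6.26% with its 30bp form and 7.58% with the single pUB10 guide (2 libraries each in these experiments). The plants were not tested against these groups. The rdr6-15 and Col-0 plants with WTCasΦ were not told apart in either construct. The medians were 4.14% (n = 39) and 7.70% (n = 31) in version 1 (exact permutation p = 0.0566, adjusted p = 0.198) and 4.31% (n = 22) and 6.35% (n = 34) in version 2 (p = 0.0953, adjusted p = 0.222). Above 30 bp the version 1 difference passed, at -1.87 points with an adjusted p of 0.0176.

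At FWA the cells with and without promoter methylation were compared with RNPs and WTCasΦ. In fwa-4 cells gRNA5 had 0.146% and 0.102% of reads in these deletions, gRNA6 0.0868% and 0.0352%, gRNA1 0.0341% and 0.0539%, and gRNA4 0.00698% and 0.00458%. In wild-type cells gRNA4, gRNA5 and gRNA6 had 0% in every library, and gRNA1 had 0.000779% and 0.000654%, from 16 and 13 reads of -66:45D, which a control also holds. As a percent of all reads the groups did not overlap at any guide (exact permutation p = 0.00154, adjusted p = 0.00540, n = 8 and 8, a measure chosen after seeing the data). Indel reads of 3 bp or more also differed, with 13109 to 52817 in fwa-4 libraries and 13 to 1871 in wild-type ones. The percent of all reads carries that difference, and large deletions were not tested apart from it. As a share of indel reads only gRNA4 could be compared, with 0.444% and 0.318% against 0% and 0%, where the exact permutation p of 0.333 is the smallest that 2 against 2 libraries allow. The wild-type libraries of the other guides had 13 to 552 indel reads, too few for a share.

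Single plants differed from one another by which deletion led. Of the 476 plant libraries, 21 had no deletion above 20 bp, 74 had one above 1% of reads and 8 had one above 10%. Among the 455 with any, -16:24D led in 360, -34:42D in 31 and -18:34D in 6, with 39 different leaders in all. Of the 74 with a deletion above 1%, 55 were led by -16:24D. The highest was a vCasΦ plant with U6 in which -18:34D had 47.6% of 2299311 reads. Next came vCasΦ plants with the CmYLCVp guide in which -16:24D had 36.3% and -6:31D had 28.9%, and these deletions made up nearly all of the indel reads, with shares of 98.4% and 99.2%. A vCasΦ plant with U6 had -34:42D at 22.7%. Among WTCasΦ plants the highest was a version 1 rdr6-15 plant with -16:24D at 13.0% and a share of 93.2%. The 5 libraries of the 1 Col-0 version 1 plant sampled in several leaves and a flower held no deletion above 20 bp, although up to 49.5% of their reads had an indel.

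Within libraries that had any deletion above 20 bp, -16:24D usually took a large part of their reads. Its share of all large-deletion reads had a median of 48.3% in Col-0 WTCasΦ plants, 48.2% in rdr6-15 WTCasΦ plants, 38.6% in vCasΦ plants and 42.7% in nCasΦ plants with U6, and 34.3% and 36.6% in vCasΦ and nCasΦ plants with ribozyme guides. In edited gRNA10 protoplasts it was 28.8%. Values were spread widely within each set, and most narrowly in the U6 plants with nCasΦ, between 22.5% and 91.3%. Over the gRNA10 controls, -16:24D had 572 of 693 large-deletion reads. Of the Col-0 WTCasΦ plants at 23 °C, 18 of 84 were at or below their highest control for -16:24D, 0.00367% of reads. How far reads of the kind seen in controls raised its shares, or the number of plants it led, was not tested. Compound labels with a deletion above 20 bp next to another change were kept apart. They added 779 entries with 94927 reads in edited libraries and none in controls.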

How the data were processed

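PCR amplicons around each target site, made in a pair of PCR rounds, were sequenced by the authors. Reads were trimmed with Trim Galore, mapped to the target region with BWA-MEM 0.7.17 and exported as mutation patterns with CrispRvariants. The deposited files hold counts of reads for each pattern in 1 library. The build used for the amplicons is not given in the sources used here. Sites were placed on RefSeq TAIR10.1 from the base that the substitution labels leave out at each position. The authors' own criterion of 100 reads was tried as an alternative to 10 reads. Patterns wholly within the A run at FWA gRNA5 and gRNA6 were left out of indel reads.

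Groups came from the sample labels. Percents were compared by exact two-sided permutation tests of the rank sum, within guides for protoplasts, with Benjamini-Hochberg adjustment (Python 3.11.15, numpy 2.4.6, scipy 1.17.1, pandas 2.3.3), and the test was tested on simulated data. Members and named deletions, which were, at each guide, the 3 with most reads, the most widespread, the largest and that with most control reads, were chosen with earlier results of these data known. Where labels do not name separate cultures, p-values measure the spread between libraries, which may be technical. Reads carry no molecular identifiers, so counts of reads are not counts of molecules and no interval for counting error was given. Same-numbered RNP replicates deviated together, with correlations of 0.502, 0.374 and 0.351 over 24 pairs each. The main tests did not use these numbers, and an alternative setting took them as blocks. Plasmid replicates gave correlations of mixed sign (0.500, -0.292 and -0.657 over 12 pairs each). With 2 replicates a group their deviations mirror each other, so these values do not settle whether they deviated together. The 70 maize libraries were used only for a count, and 10 Arabidopsis samples without a pattern file were not analysed here.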

Additional observations from a re-analysis of the deposited data

Results flagged for a closer look

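In a pair of groups of 10 T1 plants kept at 28 °C, 1 plant stood far from the rest in percent of reads with a deletion above 20 bp. A Col-0 version 2 plant had 0.0547%, with the other plants between 0% and 0.0245%, and an rdr6-15 version 1 plant had 0.107%, with the others between 0% and 0.0505%. In both plants -16:24D led, with 359 and 443 reads. Of 43 groups and measures examined, 2 had such a plant. The rule set the gap to the nearest value against the range of the group. Its nominal rate of about 1 such group in 20 assumes normally distributed values, which was not checked here.

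In plasmid protoplasts some enzyme differences ran in opposite directions at different guides, with no overlap between the libraries at either guide. These contrasts rest on 2 libraries an arm, and the differences between guides were not tested. The vCasΦ minus WTCasΦ share of indel reads was 6.37 points at gRNA10 and 18.0 at FWA gRNA6, but -2.80 at FWA gRNA1 and -6.56 at FWA gRNA4. The gaps between guides were 9.17 and 12.9 points for gRNA10 against FWA gRNA1 and gRNA4, and 20.8 and 24.6 for FWA gRNA6 against them. For nCasΦ minus WTCasΦ the gap between FWA gRNA6 and gRNA4 was 14.5 points. For nCasΦ minus vCasΦ, FWA gRNA1 with 3.63 points stood apart by 9.71 from gRNA10, 5.76 from gRNA8, 7.14 from FWA gRNA5 and 13.1 from FWA gRNA6.

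Reads that the files put in no single pattern were outside the comparisons above. In 522 of 692 edited libraries their percent was above the highest of the 50 controls, 0.00901%. Their median was 0.0473% in edited libraries and their highest value 52.4%. Across the 692 edited libraries their percent had a rank correlation of 0.886 with the percent of deletions above 20 bp. The maize libraries, which were not compared, held 8 entries of deletions above 20 bp with 865 reads, and the maize controls held none.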

How the results depend on the processing

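Of 249 values over 21 results under other settings, 214 kept their direction and their side of the threshold, and 9 results did so throughout. Those were the 4 comparisons with controls, the higher vCasΦ and nCasΦ shares in U6 plants, the vCasΦ minus WTCasΦ and nCasΦ minus vCasΦ plasmid differences, and rdr6-15 against Col-0 in version 2. Where values changed, the cause was not tested unless the setting itself removed the deletions in question. Values below are differences in percentage points.

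The RNP enzyme differences, all near 0, changed sign. For vCasΦ minus WTCasΦ they were 0.0405 with a minimum of 100 reads, 0.458 above 30 bp, 0.117 for spanning deletions, 0.120 without control patterns, 0.0884 with indels from 1 bp and 0.181 without each guide's top deletion. For nCasΦ minus WTCasΦ they were -0.0909 above 30 bp, -1.48 with a minimum of 0.5% of indel reads (adjusted p = 0.00683 by the exact permutation test), -0.0726 without the top deletion and -0.0327 with compound labels. For nCasΦ minus vCasΦ they were -0.549 above 30 bp, -0.0884 without control patterns, -0.525 with the 0.5% minimum and -0.254 without the top deletion, and in U6 plants 0.0814 above 30 bp and 0.769 without control patterns. Leaving out 1 replicate gave -0.475 to 0.350, -0.624 to 0.303 and -0.336 to 0.676 for the 3 RNP differences, -2.16 to 2.03 for nCasΦ minus WTCasΦ with plasmids and -0.0331 to 1.04 for plasmid minus RNP.

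Plants against protoplasts fell below the threshold with 100 reads (4.40), without control patterns (1.70) and without the top deletion (2.71). The comparison of fwa-4 with wild type passed it with shares from 100 indel reads (3.86) and as percent of all reads (0.0586). The wild-type libraries added by the limit of 100 had 140 to 552 indel reads. At so few, the minimum of 10 reads per deletion can by itself give 0%. For CmYLCVp against pUB10, vCasΦ turned to 1.17 and nCasΦ to 0.130 with the 0.5% minimum, and nCasΦ passed the threshold above 30 bp (-0.313), without control patterns (-0.587) and without the top deletion (-0.536). The version 1 difference between rdr6-15 and Col-0 passed it above 30 bp (-1.87). Above 30 bp, 6 guide pairs differed in place of 10, and 7 to 11 when 1 replicate was left out.

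The replicate block was run for enzymes, guides and fwa-4. It gave 11 guide pairs in place of 10, adding gRNA10 against FWA gRNA1, and changed no other call. With RNPs its differences stayed at -0.0285, 0.0298 and 0.0583. A crossed pairing of the plasmid nCasΦ libraries gave 0 calls, as did the uncrossed fit. The block was not run for edited against control or plasmid against RNP, whose libraries share no numbers. The 0.5% minimum, the settings without the top deletion and with compound labels, the percent for fwa-4 and the crossed pairing were chosen after seeing the data.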
